A study of Mus musculus with 8 samples.

Results

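A set of 10 genes of the switch between secretory and absorptive fate in the intestinal epithelium was followed through single cells of mouse cecum and colon. They were chosen as a list by symbol: the receptor Notch1, the ligands Dll1 and Dll4, the Notch target Hes1, and the transcription factors Atoh1, Spdef, Gfi1, Klf4, Foxa3 and Neurog3. The Ensembl identifiers in the gene table are ENSMUSG00000026923 for Notch1, ENSMUSG00000014773 for Dll1, ENSMUSG00000027314 for Dll4, ENSMUSG00000022528 for Hes1, ENSMUSG00000073043 for Atoh1, ENSMUSG00000024215 for Spdef, ENSMUSG00000029275 for Gfi1, ENSMUSG00000003032 for Klf4, ENSMUSG00000040891 for Foxa3 and ENSMUSG00000044312 for Neurog3. All 10 were found in the table of 33696 genes, of which 27304 had at least 1 transcript. In the 14840 cells analysed, Hes1 was the member with the most transcripts, 44039 in 9179 cells, and Neurog3 the member with the fewest, 222 in 57 cells. Between them lay Klf4 with 38429 transcripts, Notch1 with 30776, Foxa3 with 8522, Atoh1 with 4882, Spdef with 4877, Dll1 with 4569, Dll4 with 4218 and Gfi1 with 485.

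The study sequenced sorted epithelial cells from control mice (Ctrl), mice given antibiotics (Abx_4D and Abx_14D) and germ-free mice (GF). The sources do not state what 4D and 14D stand for, which antibiotics were used, or the strain and age of the mice. Tissue was released with EDTA, dissociated with dispase and DNase, pooled within each condition, and sorted for EPCAM-positive, CD45-negative cells as equal parts CD44-positive and CD44-negative, so the sort sets the proportion of crypt to surface cells. Each group was loaded as 4 numbered samples into 8 sublibraries of the Evercode WT kit of Parse Biosciences, where fixed cells are split and pooled so that each gathers a combination of barcodes. Nothing in the sources says whether a number stands for an animal, so the p-values below measure only the spread between these loaded samples, which may be technical. The 4 cecal groups held 6773 cells in 16 loaded samples, and colon Abx_14D and colon GF held 8067 cells in 8. The colon Ctrl samples (50 cells) and colon Abx_4D samples (1026 cells, most of them in 1 sample) were not compared, so the colon has no untreated control here.

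Notch signalling works between neighbouring cells. A cell that displays a Delta-like ligand, such as Dll1 or Dll4, activates Notch1 on the cell beside it; the cleaved receptor enters the nucleus, joins RBPJ, and turns on the repressor Hes1. Hes1 holds down Atoh1, the factor that commits a crypt cell to the secretory lineages, so that a cell receiving the signal stays a progenitor or becomes absorptive, while a cell that escapes it makes Atoh1, raises its own ligands and becomes secretory. Downstream of Atoh1, Spdef and Foxa3 drive goblet cell maturation, Gfi1 favours goblet over endocrine fate, and Neurog3 starts the enteroendocrine programme. Klf4 acts in differentiated surface and goblet cells.

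The sequences just upstream of Dll1, Dll4, Spdef and Foxa3 are shown. They were picked because these 4 genes were higher in colon crypt cells that held an Atoh1 transcript, as described below. In the cecum only Dll1 and Spdef passed the test, and the colon call of Foxa3 was lost in some settings. The table lists a pair of starts for Dll1; the window of the upstream one is shown, and that of the other, chr17:15375824-15376073, held none of the motifs searched. Each is the 250 bases before a transcription start, written 5′ to 3′ on the strand of the gene, from RefSeq's annotation of GRCm38.p6. Of the members, 9 matched an entry in that table and Hes1 did not. Capitals mark a match to 1 of 3 motifs: the E-box CAGCTG bound by Atoh1-type factors (it reads the same on both strands), the RBPJ core TGGGAA on either strand, and the N-box CACNAG of Hes factors on either strand.
Dll1, chr17:15376933-15377182, minus strand: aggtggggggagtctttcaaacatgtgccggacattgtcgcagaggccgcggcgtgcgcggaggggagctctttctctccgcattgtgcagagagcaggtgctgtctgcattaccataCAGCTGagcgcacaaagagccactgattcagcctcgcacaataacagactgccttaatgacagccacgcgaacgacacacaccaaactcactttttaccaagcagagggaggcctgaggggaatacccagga
Dll4, chr2:119325534-119325783, plus strand: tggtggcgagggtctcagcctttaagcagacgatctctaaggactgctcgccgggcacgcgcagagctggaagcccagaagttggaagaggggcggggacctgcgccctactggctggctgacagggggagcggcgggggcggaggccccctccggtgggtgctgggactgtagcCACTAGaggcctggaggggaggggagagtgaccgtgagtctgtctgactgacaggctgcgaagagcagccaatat
Spdef, chr17:27728952-27729201, minus strand: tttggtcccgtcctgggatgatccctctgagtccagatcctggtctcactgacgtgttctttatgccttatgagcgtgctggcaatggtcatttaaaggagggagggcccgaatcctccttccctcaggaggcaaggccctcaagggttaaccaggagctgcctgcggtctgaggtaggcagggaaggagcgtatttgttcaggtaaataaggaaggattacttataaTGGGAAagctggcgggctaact
Foxa3, chr7:19023540-19023789, minus strand: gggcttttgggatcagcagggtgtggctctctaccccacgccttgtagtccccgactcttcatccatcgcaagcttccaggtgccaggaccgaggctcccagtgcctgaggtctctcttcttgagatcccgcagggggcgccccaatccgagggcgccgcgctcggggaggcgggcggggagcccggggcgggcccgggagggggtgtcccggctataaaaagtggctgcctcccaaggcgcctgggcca
Counting the base before the start as -1, the E-box in the Dll1 window began at position -132, the N-box in the Dll4 window at -75 and the RBPJ core in the Spdef window at -22. The Foxa3 window held none of the 3 motifs. Such short motifs are common: of 32851 windows of the same length in the table, 13.0% held the E-box, 21.6% the RBPJ core and 36.7% the N-box, so a match here is a description of the letters and not evidence of binding. The Dll1 window overlaps an exon of the antisense RNA A930024N18Rik, and the Dll4 window the edge of an exon of Gm14207 (GENCODE vM21). Whether the authors' counting used strand is not given, so transcripts of Dll1 and of overlapping antisense RNA cannot be told apart.

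Cells were placed in classes by the share of marker transcripts per cell, with no member among the markers. The classes were goblet (1190 cells, at least 20 per 10000 transcripts from Muc2, Fcgbp, Clca1, Zg16, Agr2, Tff3 and Ern2), absorptive (3875), tuft (230), enteroendocrine (58) and crypt (9289, below every gate). Crypt cells were divided into stem-marker-rich noncycling cells (2320), S phase (1560), G2 and mitosis (1811) and other noncycling cells (3598). These are ranges of a score and not cell types: 2072 cells lay within 1.5 times of the absorptive gate and 231 within 1.5 times of the goblet gate. The median goblet, absorptive and crypt cell held 0 immune and 0 stromal marker transcripts. Loaded samples held 191 to 1886 cells and 1821737 to 30127065 transcripts. In 4 cecal samples (Abx_4D 2, Abx_14D 3, Abx_14D 4 and GF 4) the median cell had over 0.5% mitochondrial transcripts, against none in the colon. Of 23007 barcode combinations, 1477 occurred in more than 1 sublibrary, and doublets were left in.

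Levels are given as CPM, the summed transcripts of a gene scaled to counts per 1000000 transcripts of the class in 1 loaded sample, as the lowest, median and highest sample. Values compare classes or samples for 1 gene, and not genes with each other. Classes share their source samples and were cut from the same cells, so their differences are described without a test.

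Notch1 was highest in the stem-marker-rich cells and low in both differentiated classes of the cecum. Its level in stem-marker-rich cells was 162, 194 and 247 CPM in the cecum and 198, 238 and 279 CPM in the colon, above the other noncycling crypt cells of the same sample in 16 of 16 cecal and 8 of 8 colon samples. In goblet cells Notch1 was at 26.6, 47.1 and 78.6 CPM in the cecum and 13.1, 31.3 and 56.1 CPM in the colon, below the crypt class in all 12 cecal and all 8 colon samples with at least 20 goblet cells. The absorptive class split by region: Notch1 was at 16.5, 25.9 and 77.2 CPM in the cecum, overlapping the goblet range, and at 79.8, 102 and 151 CPM in the colon, with no colon sample down at the cecal values. Within the same sample, goblet Notch1 exceeded absorptive Notch1 in 11 of 12 cecal and 0 of 8 colon samples (median ratio 1.94 and 0.285).

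Hes1, the gene Notch turns on, was distributed like its receptor. Hes1 in the crypt class was at 130, 224 and 338 CPM in the cecum and 165, 241 and 315 CPM in the colon. The stem-marker-rich cells exceeded the other noncycling cells in 15 of 16 cecal and 8 of 8 colon samples. Goblet cells had less Hes1 than crypt cells in every sample compared, with 29.1, 67.9 and 110 CPM in the cecum and 25.5, 34.5 and 97.4 CPM in the colon. Absorptive Hes1 was at 41.8, 68.2 and 163 CPM in the cecum and 122, 168 and 202 CPM in the colon, and it too was below the crypt class of the same sample in all 16 and all 8 samples.

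The ligands had the opposite arrangement. Dll1 in goblet cells was at 62.3, 112 and 185 CPM in the cecum and 68.8, 98.9 and 145 CPM in the colon, while the crypt class held 1.62, 5.33 and 13.9 CPM and 7.16, 10.4 and 17.8 CPM. The 2 ranges did not overlap in either tissue. Dll4 was less confined to goblet cells. Goblet Dll4 was at 30.0, 64.8 and 108 CPM in the cecum and 30.4, 53.5 and 73.6 CPM in the colon, and the crypt class had 11.7, 17.3 and 25 CPM and 8.12, 12.2 and 17.5 CPM. Within the same samples the median ratio of goblet to crypt level was 24.0 for Dll1 and 4.07 for Dll4 in the cecum, and 10.9 and 4.15 in the colon. Tuft cells, a chemosensory lineage, also held ligand: summed over 39 cecal tuft cells Dll1 was at 68.6 CPM (95% Poisson interval 48.3 to 94.6, 37 transcripts), and over 191 colon tuft cells at 22.6 CPM (16.4 to 30.5, 43 transcripts). Summed Dll4 was at 37.1 CPM (22.7 to 57.3) in cecal and 21.6 CPM (15.5 to 29.3) in colon tuft cells. Enteroendocrine cells, 18 cecal and 40 colon, held Dll4 at 46.5 CPM (26.0 to 76.7) and 15.8 CPM (8.17 to 27.6). Their Dll1 was at 21.7 CPM (8.72 to 44.7) and 9.22 CPM (3.71 to 19.0), on 7 transcripts in each tissue. These intervals cover counting error only.

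Atoh1, Spdef and Gfi1 were goblet genes in these sorted cells. Atoh1 was at 120, 155 and 286 CPM in cecal goblet cells against 0.627, 1.19 and 6.78 CPM in the cecal crypt class. In the colon it was at 124, 149 and 214 CPM against 2.53, 5.66 and 9.68 CPM, so that the lowest goblet sample was far above the highest crypt sample in both tissues. Spdef, which carries Atoh1-positive cells toward mucus production, was at 67.0, 97.9 and 164 CPM in cecal and 141, 186 and 314 CPM in colon goblet cells. The crypt class had 0, 0.998 and 2.66 CPM of Spdef in the cecum and 2.22, 3.5 and 5.57 CPM in the colon. Gfi1 was sparse, with 485 transcripts in all, and was at 2.58, 11.4 and 19.6 CPM in cecal and 12.4, 19.7 and 26.2 CPM in colon goblet cells. Gfi1 in the crypt class reached at most 0.536 CPM in a cecal and 1.25 CPM in a colon sample.

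Foxa3 was highest in goblet cells and, within the crypt, in the stem-marker-rich cells of most samples. Its goblet level was 41.2, 85.2 and 131 CPM in the cecum and 78.2, 96.5 and 117 CPM in the colon. Foxa3 in stem-marker-rich cells was at 30.5, 42.3 and 69.6 CPM in the cecum and 27.6, 50.1 and 65.0 CPM in the colon, above the other noncycling cells in 14 of 16 and 8 of 8 samples. Cecal absorptive cells held little of it, 1.38, 4.40 and 22.3 CPM, against 18, 23.2 and 39.3 CPM in the colon.

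Klf4 ran against Notch1 and Hes1 within the crypt and was the 1 member higher in absorptive than in crypt cells of every sample. It was at 215, 414 and 614 CPM in cecal and 149, 206 and 315 CPM in colon absorptive cells, and at 147, 204 and 321 CPM and 154, 182 and 253 CPM in goblet cells. The goblet and absorptive ranges overlapped in both tissues. Within the same sample, goblet Klf4 was above absorptive Klf4 in 0 of 12 cecal and 2 of 8 colon samples (median ratio 0.485 and 0.832). Klf4 in the crypt class was at 36.6, 49.2 and 76.2 CPM in the cecum and 54.5, 61.1 and 88.3 CPM in the colon. The stem-marker-rich cells were below the other noncycling cells in all 16 cecal and all 8 colon samples, with a median ratio of 0.530 and 0.566.

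**Figure D1:**
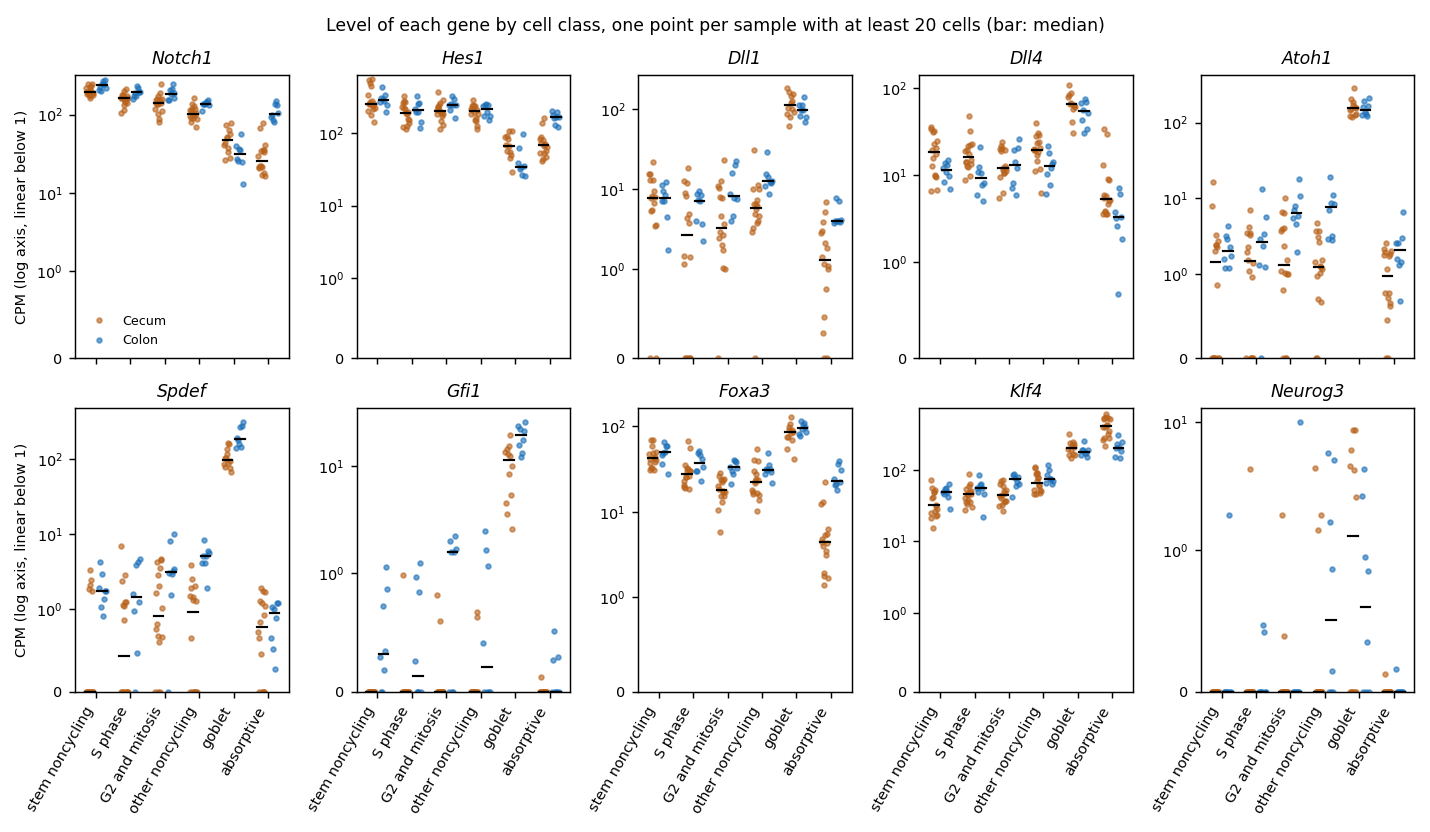
Level of each member in CPM (log axis, linear below 1) by cell class, 1 point per loaded sample with at least 20 cells of the class, with cecum and colon in separate colours and the median as a bar. Atoh1, Dll1, Spdef and Gfi1 stand apart in goblet cells. Notch1 and Hes1 are lower in goblet than in crypt cells, below absorptive cells in the colon but not in the cecum, and Klf4 is higher in goblet and absorptive than in crypt cells.

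Neurog3, the starter of endocrine fate, was carried by a handful of cells. Its 222 transcripts came from 57 cells (25 cecal, 32 colon) of 21 loaded samples, and the 5 richest cells held 65 of them. By class, 12 of the 57 were enteroendocrine, 15 goblet, 12 other noncycling crypt cells, and 9 passed more than 1 gate. An enteroendocrine marker transcript was found in 36 of the 57, Dll1 in 29, Hes1 in 24 and Atoh1 in 12. Of all cells analysed, 10.8% held Dll1, 61.9% Hes1 and 8.94% Atoh1. Summed over the 18 cecal enteroendocrine cells Neurog3 was at 46.5 CPM (95% Poisson interval 26.0 to 76.7, 15 transcripts), and over the 40 colon ones at 44.8 CPM (31.0 to 62.6, 34 transcripts). The same cells held 0 and 1 transcripts of Atoh1, for which 3 counts would be 9.30 and 3.95 CPM, and 0 of Spdef and Gfi1. Tuft cells held no Neurog3 transcript, where 3 counts would be 5.56 CPM in the cecum and 1.58 CPM in the colon.

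Goblet cells themselves were graded. Ordered by their share of goblet marker transcripts, from 20 to 60, 60 to 180 and above 180 per 10000, the cecal cells numbered 80, 126 and 238 and the colon cells 197, 226 and 323. Atoh1, summed over the cells of each range, went from 54.0 to 127 to 233 CPM in the cecum and from 84.7 to 139 to 188 CPM in the colon. Spdef went from 55.9 to 88.5 to 141 CPM and from 93.0 to 166 to 288 CPM. In each sample with at least 5 cells at both ends (7 cecal, 8 colon), both factors were higher in the marker-rich than in the marker-poor range. Klf4 was also higher in 7 of 7 and 8 of 8 samples. Notch1 moved the other way, from 96.6 to 63.4 to 16.5 CPM in the cecum and from 79.1 to 32.4 to 15.0 CPM in the colon, and was lower in 7 of 7 and 8 of 8 samples. Hes1 was lower in 7 of 7 cecal and 7 of 8 colon samples.

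The ligands did not follow Atoh1 along this order. Dll1 was at 126, 168 and 112 CPM across the cecal ranges and at 151, 132 and 62.6 CPM across the colon ranges, lower at the marker-rich end in 5 of 7 and 7 of 8 samples. Dll4 was at 44.5, 73.4 and 79.1 CPM in the cecum, with the marker-rich end higher in 6 of 7 samples, and at 67.9, 70.7 and 42.7 CPM in the colon, with it lower in 6 of 8. Whether the tissues differ in this was not tested. Neurog3 was found mainly in the marker-poor goblet range, at 11 CPM in the cecum and 3.9 CPM in the colon, against 0.776 and 0 CPM in the marker-rich range. The marker-poor values rest on 23 and 14 transcripts, and in the whole goblet class only 9 cecal and 6 colon cells held Neurog3. Whether doublets or free RNA move these gradients was not tested.

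**Figure D2:**
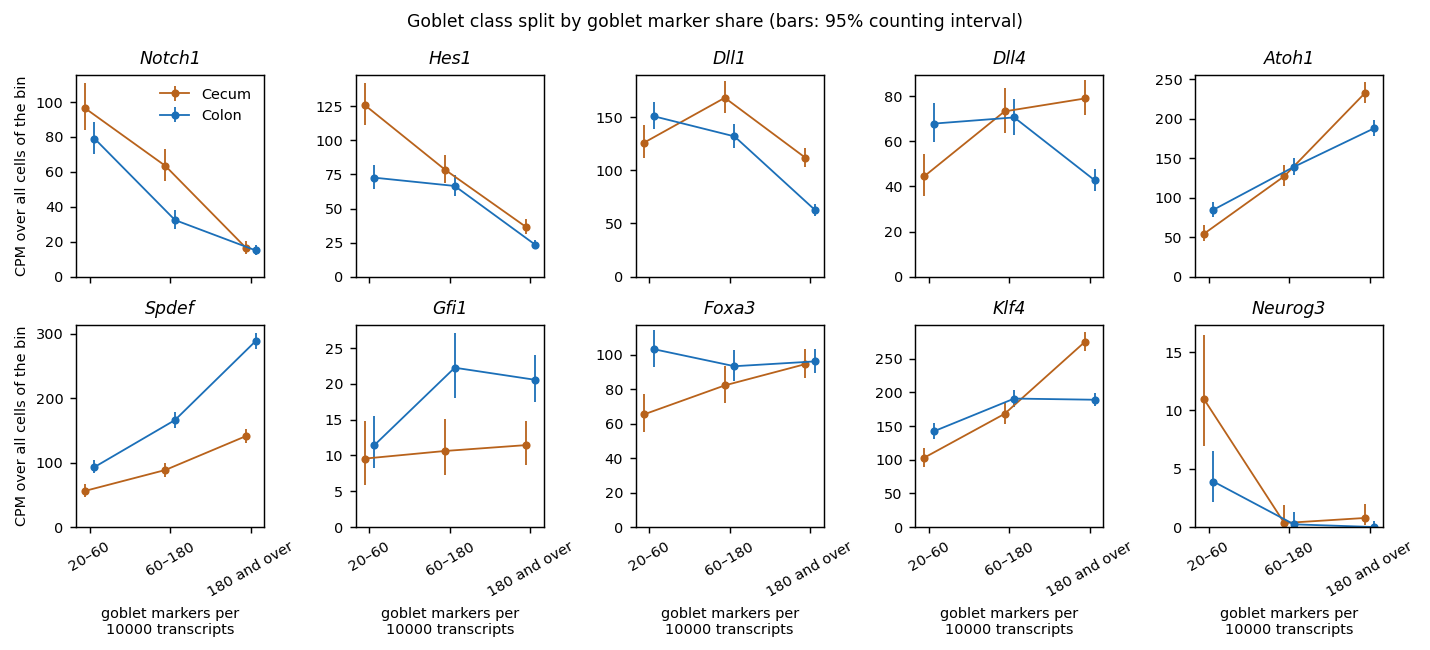
Member levels in CPM over 3 ranges of the goblet marker share (x axis, marker transcripts per 10000), cells summed within tissue, with 95% Poisson intervals. Atoh1 and Spdef climb and Notch1 falls from the marker-poor to the marker-rich range in both tissues.

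The crypt class was then searched for cells that held an Atoh1 transcript while still under the goblet gate. Such cells were 2.48% of cecal and 3.55% of colon crypt cells. Absorptive cells, which should lack Atoh1, had a share of 1.74% and 2.63%, so the excess in share was small. These shares are not at equal depth: over both tissues the median was 15216 transcripts per absorptive cell against 13459 per crypt cell. By level, crypt Atoh1 exceeded absorptive Atoh1 in 10 of 16 cecal and 7 of 8 colon samples (median ratio 1.80 and 2.72). The part of free RNA in the excess was not tested. For Dll1 the shares were 5.37% and 7.05% of crypt and 2.30% and 6.30% of absorptive cells. For Dll4 they were 16.6% and 9.56% against 7.09% and 4.87%. The Atoh1-positive cells differed from their neighbours in which other members they held. Dll1 was found in 31.0% of Atoh1-positive and 4.71% of Atoh1-negative cecal crypt cells, and in 38.0% and 5.91% in the colon. Dll4 was found in 38.0% and 16.0%, and in 35.8% and 8.59%. Most Atoh1-positive cells also held Hes1, 78.0% against 71.1% of Atoh1-negative cells in the cecum and 61.5% against 71.9% in the colon. Notch1 was found in 87.0% against 68.1%, and in 78.6% against 73.9%. The Atoh1-positive cells were also deeper, with medians of 21915.5 against 13980 transcripts in the cecum and 17660 against 12755 in the colon.

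Summed within each loaded sample and compared with the sample as a block, the colon showed Dll1, Dll4, Spdef and Foxa3 higher and Hes1 lower in the Atoh1-positive cells (187 against 5076 cells, 8 samples). Thus 5 of the 7 members tested passed edgeR's quasi-likelihood test, with Benjamini-Hochberg adjustment over all genes, against a background of 5.01% of 10660 genes. Dll1 was at 43.1, 63.4 and 197 CPM in Atoh1-positive cells and at 3.02, 6.66 and 9.86 CPM in Atoh1-negative cells, with no overlap. Its log2 fold change was 3.38 ± 0.24 (SE, edgeR adjusted p = 1.1e-08), higher in 8 of 8 samples. Spdef was at a median of 28.5 against 1.84 CPM (log2 fold change 3.82 ± 0.34, edgeR adjusted p = 3.2e-07), and Dll4 at 48.5 against 8.95 CPM (2.30 ± 0.31, edgeR adjusted p = 6.5e-05), both higher in 8 of 8. Foxa3 was at 64.7 against 36.6 CPM, a log2 fold change of 1.05 ± 0.19 (edgeR adjusted p = 0.0018).

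Hes1, the repressor of Atoh1, was the member that was lower. Its colon levels were 48.0, 163 and 241 CPM in Atoh1-positive cells and 172, 242 and 331 CPM in Atoh1-negative cells, and although the ranges overlap it was lower in the Atoh1-positive cells of all 8 samples. The log2 fold change was -0.67 ± 0.17 (edgeR adjusted p = 0.024). This call rests on the setting: it was lost without colon Abx_14D 4 (adjusted p = 0.074), without colon GF 3 (0.068), with DESeq2 (0.065), with the goblet gate at 0.5 times its value (-0.49, 0.39) and with cells thinned to 5000 transcripts (-0.32, 0.95). Foxa3 was lost in the latter 2 settings as well (adjusted p = 0.28 and 0.83), while Dll1 and Dll4 were called in both. Spdef was called with the goblet gate at 0.5 times (adjusted p = 0.0056), but after thinning it did not pass the low-count filter and had no test. Thinned with a minimum of 3 cells on each side, Hes1 was called (-0.85, adjusted p = 0.018) and Foxa3 was not (1.06, 0.17), and Dll1, Dll4 and Spdef did not pass the filter. Notch1 had a log2 fold change of -0.29 ± 0.10 (edgeR adjusted p = 0.11) and was lower in 7 of 8 samples, and Klf4 one of 0.24 ± 0.15 (0.5).

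In the cecum only 4 samples had at least 10 Atoh1-positive crypt cells (Abx_14D 2, 3 and 4 and Abx_4D 3; 47 against 1222 cells), and Dll1 and Spdef rose, 2 of 7 members against a background of 0.75% of 10671 genes. In the order just given, Dll1 was at 122, 22.7, 59.9 and 35.9 CPM in Atoh1-positive and at 4.19, 1.83, 3.44 and 6.95 CPM in Atoh1-negative cells. Every positive value lay above every negative one, with a log2 fold change of 3.76 ± 0.43 (edgeR adjusted p = 9.6e-05). At equal depth this cecal difference has no test: thinning to 5000 transcripts could not be fitted with at least 10 cells on each side, and with at least 3 cells Dll1, Dll4, Spdef and Foxa3 did not pass the low-count filter and no member was called. Spdef, at 8.73, 5.68, 25.7 and 8.99 CPM against 1.52, 0.761, 0.529 and 1.65 CPM, rested on 17 transcripts in Atoh1-positive cells (3.30 ± 0.70, edgeR adjusted p = 0.032), and without any 1 of Abx_14D 3, Abx_14D 4 or Abx_4D 3 its adjusted p was 0.064, 0.44 and 0.07. Dll4 (1.30 ± 0.31, adjusted p = 0.062) and Foxa3 (0.98 ± 0.29, 0.17) were higher, and Hes1 (-0.45 ± 0.15, 0.25) lower, in 4 of 4 samples without passing the test. Atoh1-positive cells carried more goblet marker transcripts too: a summed median of 540 against 197 CPM in the colon (higher in 8 of 8) and 485 against 156 CPM in the cecum (4 of 4), where the goblet class itself had 11224 to 47599 CPM. Markers of G2 and mitosis were at a median of 1863 against 941 CPM in the colon (higher in 7 of 8 samples) and 3730 against 2543 CPM in the cecum (4 of 4). Stem markers were at a median of 2463 against 3125 CPM in the colon (higher in 1 of 8 samples). In the cecum they were at 2054 against 1976 CPM (higher in 1 of 4). The part of these shifts in the results, that for Hes1 and Notch1 included, was not tested.

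**Figure D3:**
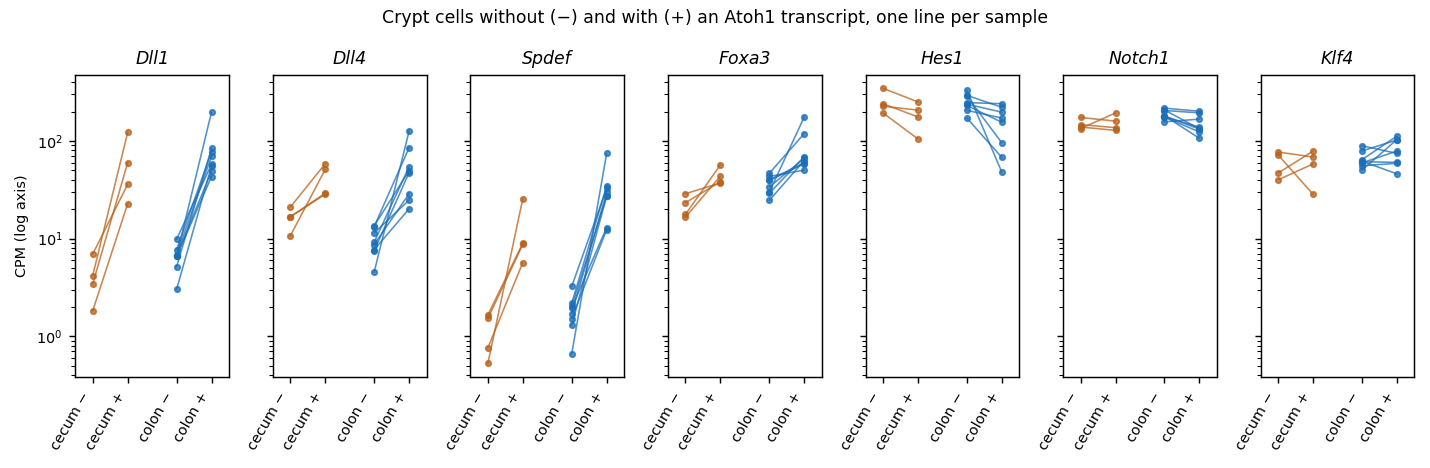
Levels in CPM (log axis) of the 7 members tested in crypt cells without and with an Atoh1 transcript, with a line joining the 2 sums of each loaded sample (4 cecal, 8 colon). Lines for Dll1 and Spdef rise in every sample of both tissues, and those for Hes1 fall in every sample.

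Other genes of the pathway were read from lists that were fixed by name. Of 54 further Notch pathway genes, 35 were tested in the colon and 2 rose in Atoh1-positive cells, a share near the 5.01% of all genes called: Lfng, a glycosyltransferase that modifies Notch receptors (log2 fold change 1.32, edgeR adjusted p = 0.00061), and Hes6, a Hes relative that counters Hes1 (0.97, 0.0012). In the cecum, where 0.75% of all genes were called, 1 of 36 rose, again Hes6 (1.70, edgeR adjusted p = 0.011). The list's median was 0.05 in the colon and -0.01 in the cecum, against 0.02 and 0.02 over all genes. Of 31 other secretory lineage factors, 5 of 15 tested in the colon rose and 1 fell. The 4 with the smallest adjusted p were the corepressor Cbfa2t3 (4.39, edgeR adjusted p = 1.4e-10), the secretory pathway factors Creb3l1 (0.95, 5.6e-07) and Creb3l4 (1.93, 0.00024), and Foxa2 (1.51, 0.00024), and the list's median was 0.44. In the cecum 3 of 13 rose, Sox4 (1.30), Cbfa2t3 (3.80) and Creb3l1 (1.53), with a list median of 0.32. Of the absorptive lineage factors 2 of 10 fell in the colon, Hnf4g (-0.43, edgeR adjusted p = 0.0025) and Nr1h4 (-0.48, 0.034), and 0 of 10 passed in the cecum.

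The next question was whether antibiotics or germ-free life changed these genes in the cecum. No member passed the test in any of 12 contrasts (3 classes; Abx_4D, Abx_14D and GF against Ctrl, and GF against Abx_14D), over 84 tests of members that passed the low-count filter. The lowest edgeR adjusted p was 0.24, 9 of the 84 had an unadjusted p under 0.05, and DESeq2 called none either. Over all genes the share called in crypt cells was 0.583% for Abx_4D, 3.2% for Abx_14D and 5.28% for GF against Ctrl, and 0.32% for GF against Abx_14D. In goblet cells it was 0%, 0.479%, 0.76% and 0.0625% (at Abx_4D, 694 genes had an unadjusted p under 0.05 and DESeq2 called 16), and in absorptive cells 1.54%, 3.5%, 7.71% and 1.19%. On simulated counts for Abx_14D against Ctrl the test recovered 80 of 100 genes changed 2-fold in crypt cells, 43 in absorptive cells and 19 in goblet cells, where only 2 Ctrl samples had 20 cells. The changed genes were drawn only from those above a minimum mean level. The recovery of sparser members, such as crypt Atoh1 at a median of 1.19 CPM, is not given by these counts. Missing the threshold therefore does not show that the members were alike.

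Hes1 in cecal crypt cells was higher on average after antibiotics, without passing the test. It was at 249, 181, 175 and 130 CPM in Ctrl and at 252, 273, 225 and 276 CPM in Abx_4D, so that only 1 Ctrl sample reached into the Abx_4D range. Abx_14D had 222, 188, 238 and 338 CPM and GF 179, 237, 132 and 182 CPM. The log2 fold change against Ctrl was 0.48 ± 0.20 for Abx_4D (edgeR adjusted p = 0.37) and 0.43 for Abx_14D (0.3), and GF, at 183 ± 43 CPM (SD, n = 4), was next to Ctrl at 184 ± 49.1. Notch1 in the same cells was at 139, 162, 148 and 107 CPM in Ctrl, 156, 140, 173 and 114 in Abx_4D, 125, 146, 135 and 138 in Abx_14D, and 199, 122, 147 and 124 in GF, and all 4 groups overlapped.

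Atoh1 in GF was low beside Ctrl in goblet cells and beside Abx_14D in crypt cells, and neither difference passed the test. In goblet cells it was at 286 and 188 CPM in the 2 Ctrl samples with enough cells and at 163, 126, 158 and 130 CPM in GF, below both (log2 fold change -0.73 ± 0.24, edgeR adjusted p = 0.24). Abx_4D had 120 and 173 CPM, also below both Ctrl samples. Abx_14D had 122, 148, 203 and 153 CPM, overlapping Ctrl and spanning all the GF values, so low goblet Atoh1 was not particular to GF. Over all 16 cecal samples crypt Atoh1 was at 0.627, 1.19 and 6.78 CPM (lowest, median and highest), so low values were not confined to GF. It was at 0.627, 0.952, 1.36 and 0.811 CPM in GF and 0.860, 3.93, 3.71 and 4.84 CPM in Abx_14D. That is 20 transcripts in all in GF, and the difference (-1.70 ± 0.60, edgeR adjusted p = 0.31) was called only when no low-count filter was applied (0.041). Goblet Dll4 was at 79.2, 108, 83.3 and 65.9 CPM in Abx_14D, all above the 2 Ctrl samples at 56.9 and 40.7 (0.76, edgeR adjusted p = 0.5), and at 30.0, 61.5, 63.8 and 59.3 CPM in GF, all below Abx_14D (-0.64 ± 0.25, edgeR adjusted p = 0.42).

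**Figure D4:**
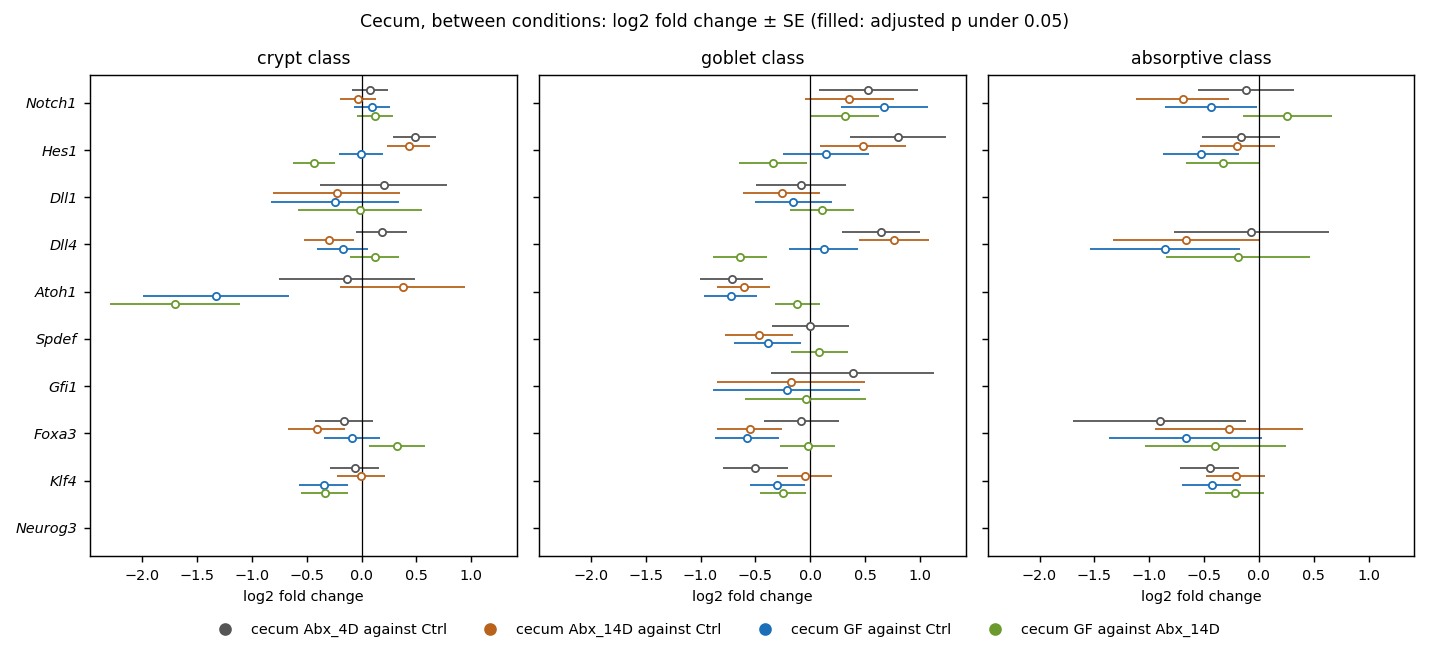
Log2 fold change with its standard error (x axis) of each member tested in cecal crypt, goblet and absorptive cells, 1 colour per contrast; members without points did not pass the low-count filter. All points are open, since none of the 84 member tests passed, and crypt Atoh1 in GF against Abx_14D lies farthest from 0.

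Among the listed pathway genes that did pass in the cecum, Dtx3l, an E3 ligase of the Deltex family known also as an interferon-responsive gene, was the most repeated. It fell by 0.93 on the log2 scale in GF against Ctrl crypt cells (edgeR adjusted p = 0.0012) and by 1.76 in absorptive cells (0.00012), and it was lower in GF than in Abx_14D absorptive cells (-1.52, 0.0014). Maml2, a coactivator of cleaved Notch, fell by 1.26 in crypt cells of Abx_14D against Ctrl (edgeR adjusted p = 0.048). In each of these contrasts no other gene of the 33 to 37 Notch pathway genes tested passed. Over all genes, 5.28% were called in crypt and 7.71% in absorptive cells of GF against Ctrl. The shares were 1.19% in absorptive cells of GF against Abx_14D and 3.2% in crypt cells of Abx_14D against Ctrl. A single call in a list of this size was not read as a result about the pathway. In absorptive cells of GF against Ctrl, Id3 (-2.07, edgeR adjusted p = 0.00058), Id1 (-1.54, 0.0098) and Xbp1 (-1.02, 0.015) fell, 3 of 10 secretory factors tested, beside 7.71% of all genes called. Creb3l1 fell in absorptive cells of Abx_4D (-2.49, edgeR adjusted p = 0.011) and Abx_14D (-1.63, 0.038), while Id2 rose in Abx_4D (1.42, 0.036). In these 2 contrasts with Ctrl 1.54% and 3.5% of all genes were called. Of the absorptive factors, Creb3l3 rose in Abx_14D (2.05, edgeR adjusted p = 0.046) and Prdm1 fell in GF (-2.05, 0.04). Elf3, an epithelial differentiation factor, fell in all 3 contrasts with Ctrl, by 0.67, 0.67 and 0.94 (adjusted p = 0.038, 0.019 and 0.00065); these contrasts share the Ctrl samples. None of the listed genes passed in cecal goblet cells.

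In the colon, GF and Abx_14D could be compared, and 1 member test passed: absorptive Notch1. It was at 138, 151, 134 and 104 CPM in GF and 92.7, 100, 85.3 and 79.8 CPM in Abx_14D, with every GF value above every Abx_14D value. The log2 fold change was 0.57 ± 0.13 (edgeR adjusted p = 0.039), 1 of 6 members against 1.77% of 11521 genes. The call was lost with TMM scaling (0.054), with the absorptive gate at 1.5 times (0.11) and without any 1 of 7 of the 8 samples (all but GF 4; adjusted p from 0.051 to 0.12). Stem markers in this class were at 1907 to 2223 CPM in GF and 1163 to 1911 CPM in Abx_14D, and their part in the Notch1 difference was not tested. In colon crypt cells (0.929% of 12376 genes called) and colon goblet cells (0.69% of 10295 genes called) no member passed. Colon goblet Spdef came nearest, at 263, 143, 273 and 314 CPM in GF and 141, 191, 181 and 157 CPM in Abx_14D (0.56 ± 0.20, edgeR adjusted p = 0.41), where GF 2 alone lay among the Abx_14D values; without GF 2 the adjusted p was 0.019. Dtx3l fell in colon GF crypt cells (-0.68, edgeR adjusted p = 0.041) and absorptive cells (-1.24, 0.0019).

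The region of the gut made a larger difference. In crypt cells Foxa3 was higher in the colon after Abx_14D, at 34.9, 30.8, 38.4 and 51.0 CPM against 22.7, 18.2, 18.7 and 29.5 CPM in the cecum, without overlap (log2 fold change 0.81 ± 0.20, edgeR adjusted p = 0.0035). Crypt Notch1 was higher in the colon in both conditions: 172 ± 9.70 against 136 ± 8.94 CPM in Abx_14D (0.33 ± 0.13, edgeR adjusted p = 0.047) and 199 ± 19.0 against 148 ± 35.8 CPM in GF (0.42 ± 0.13, 0.026; SD, n = 4 each). These 2 calls were fragile, since the first was lost without any 1 of 6 samples and the second without any 1 of 6. Stem markers summed to 2582 to 3248 CPM in colon and 1613 to 2544 CPM in cecal crypt cells after Abx_14D. In GF they summed to 2709 to 3473 and 2035 to 2694 CPM. Their part in the Foxa3 and Notch1 differences was not tested. Atoh1 in GF crypt cells was at 3.14, 2.96, 8.10 and 6.97 CPM in the colon against 0.627, 0.952, 1.36 and 0.811 CPM in the cecum, with no overlap (2.29 ± 0.56, edgeR adjusted p = 0.0063). In the other condition neither passed: Atoh1 after Abx_14D was at 5.90 ± 3.13 against 3.33 ± 1.72 CPM (0.72 ± 0.47, edgeR adjusted p = 0.23), and Foxa3 in GF at 38.3 ± 7.19 against 27.7 ± 6.92 CPM (0.47 ± 0.20, 0.11), with overlap. So 2 of 8 members passed in each condition, against 37% and 17.2% of 12774 genes. The Abx_14D count was 4 with DESeq2 and 1 to 3 with a sample left out. Crypt Spdef was higher in the colon by 1.22 ± 0.51 and 1.52 ± 0.54 (edgeR adjusted p = 0.064 and 0.055).

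In goblet cells Spdef was the 1 of 9 members tested that passed between the regions, in both conditions. Spdef was at 141, 191, 181 and 157 CPM in the colon and 86.1, 103, 78.5 and 103 CPM in the cecum after Abx_14D (log2 fold change 0.86 ± 0.24, edgeR adjusted p = 0.021). In GF it was at 263, 143, 273 and 314 CPM in the colon and 157, 75.6, 92.9 and 67.0 CPM in the cecum (1.34 ± 0.24, 0.00057). The Abx_14D ranges did not overlap, and in GF colon GF 2 lay below cecal GF 1. The backgrounds were 14.4% and 10.7% of 9662 genes. The Abx_14D call was lost without cecal Abx_14D 1 (adjusted p = 0.056), cecal Abx_14D 3 (0.068), colon Abx_14D 2 (0.064) or colon Abx_14D 3 (0.053), and without the samples over 0.5% mitochondrial transcripts (0.11). Goblet markers, which are the gate, summed to 31438 to 47599 CPM in colon and 19460 to 29465 CPM in cecal GF goblet cells, and to 11224 to 32292 and 16641 to 24062 CPM after Abx_14D; their part in the Spdef difference was not tested. Gfi1 was also higher in the colon, by 0.96 ± 0.45 in Abx_14D (18.5 ± 5.32 against 9.09 ± 5.84 CPM, edgeR adjusted p = 0.16) and 1.05 ± 0.43 in GF (19.7 ± 5.47 against 9.41 ± 7.46 CPM, 0.13), without passing the test and with overlapping samples. Goblet Dll4 was lower in the colon after Abx_14D (-0.75 ± 0.27, edgeR adjusted p = 0.068). Goblet Atoh1 was at 155 ± 29.7 against 157 ± 33.9 CPM in Abx_14D (-0.02 ± 0.19, edgeR adjusted p = 0.97) and 159 ± 41.1 against 144 ± 18.8 CPM in GF (0.13 ± 0.19, 0.72; SD, n = 4).

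Absorptive cells differed most. After Abx_14D all 6 members tested passed, against 54.7% of 11705 genes, and in GF 5 of 6, against 53.6%. Notch1 was at 92.7, 100, 85.3 and 79.8 CPM in the colon and 29.6, 21.5, 20.8 and 22.2 CPM in the cecum of Abx_14D (log2 fold change 1.96 ± 0.23, edgeR adjusted p = 3.9e-07). In GF it was at 138, 151, 134 and 104 CPM against 35.0, 18.1, 41.0 and 16.5 CPM (2.25 ± 0.22, 5.4e-08). Hes1 followed, at 169 ± 30.8 against 74.2 ± 15.4 CPM (1.19 ± 0.18, edgeR adjusted p = 1.4e-05) and 165 ± 32.1 against 59.6 ± 9.84 CPM (1.49 ± 0.19, 1.2e-06; SD, n = 4). Receptor and target were thus both higher in colon absorptive cells, without overlap in either condition.

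The remaining absorptive differences ran in both directions. Foxa3 was higher in the colon by 1.94 ± 0.32 in Abx_14D (edgeR adjusted p = 3.5e-05) and 2.84 ± 0.33 in GF (4.4e-07). Dll1 was higher by 1.56 ± 0.50 (0.012) and 2.30 ± 0.55 (0.0016), at levels of 4.87 ± 1.89 and 4.79 ± 1.57 CPM in the colon that are small beside goblet Dll1. Klf4 was lower in the colon, at 152, 203, 235 and 315 CPM against 268, 398, 527 and 531 CPM in Abx_14D (-0.94 ± 0.24, edgeR adjusted p = 0.0022) and at 208, 149, 183 and 244 CPM against 326, 352, 280 and 527 CPM in GF (-0.93 ± 0.24, 0.0026). Dll4 was lower in Abx_14D (-1.26 ± 0.46, edgeR adjusted p = 0.025) and not called in GF (-0.19 ± 0.44, 0.74). Without the samples over 0.5% mitochondrial transcripts the Abx_14D calls of Dll1 (0.65, adjusted p = 0.4), Dll4 (-1.56, 0.055) and Klf4 (-0.56, 0.068) were lost. The Dll1 call was also lost without cecal Abx_14D 3 (0.055) or 4 (0.054), and the Dll4 call without cecal Abx_14D 1 (0.087) or colon Abx_14D 4 (0.07). The median log2 fold change over all genes was 0.33 and 0.34. The same gate held cells of different maturity in the 2 regions: absorptive markers summed to 4880 to 6256 CPM in the colon and 7432 to 19457 CPM in the cecum, and stem markers to 1163 to 2223 and 292 to 804 CPM. Their part in the Notch1, Hes1 and Klf4 differences was not tested.

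**Figure D5:**
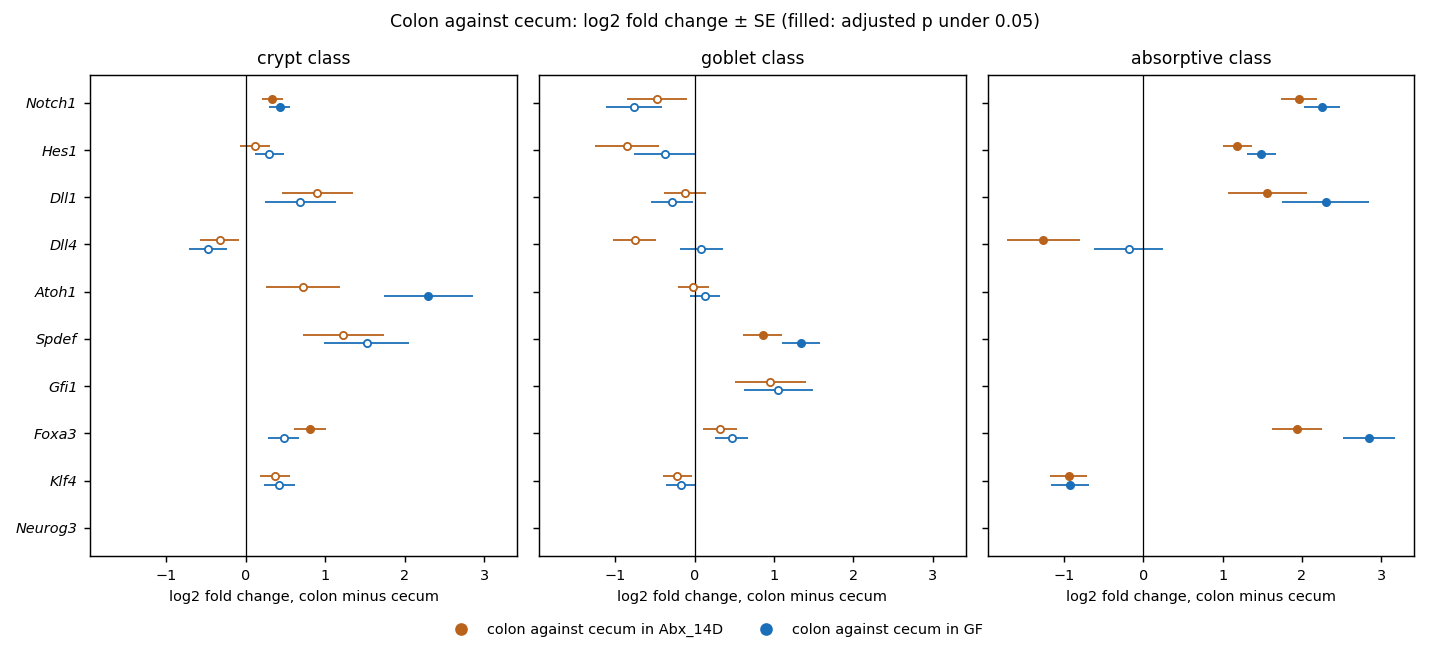
Log2 fold change of colon over cecum with its standard error for each member tested, by class, in Abx_14D and in GF; filled points passed edgeR's test at an adjusted p of 0.05. Notch1, Hes1 and Foxa3 lie to the colon side and Klf4 to the cecal side in absorptive cells, and Spdef to the colon side in goblet cells.

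Other pathway genes were read against the share of all genes called between the regions. In absorptive cells 20 of 37 Notch pathway genes were higher and 3 lower in the colon after Abx_14D, and 24 and 3 in GF, where 54.7% and 53.6% of all genes were called. The list's median was 0.53 and 0.65, beside 0.33 and 0.34 over all genes. The coactivator Maml3 was higher by 1.97 (edgeR adjusted p = 8.2e-10) and 1.47 (4.3e-08), and the Deltex gene Dtx4 by 2.75 (1.9e-06) and 2.76 (1.7e-06). Of the secretory factors in absorptive cells, 6 of 12 were higher and 1 lower after Abx_14D, and 9 of 12 higher in GF, led by Creb3l1 (4.03 in both, edgeR adjusted p = 1.4e-11 and 9.3e-12). Of the absorptive factors in the same cells, 6 of 13 were higher and 5 lower after Abx_14D, and 5 and 5 in GF.

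In crypt cells 10 of 40 Notch genes were higher and 5 lower after Abx_14D, and 8 higher and 1 lower in GF, near the 37% and 17.2% of all genes called. Among them were Maml2 (2.21 and 1.34) and the corepressor Tle4 (0.85 and 0.73). Secretory factors in crypt cells were higher in 5 and lower in 3 of 16 after Abx_14D, and higher in 6 in GF, and absorptive factors in 2 and 1 of 11, and in 2. In goblet cells 4 of 35 Notch genes were higher and 1 lower after Abx_14D and 3 higher in GF, no more than the 14.4% and 10.7% of all genes called. Secretory factors in goblet cells were higher in 4 and lower in 4 of 13 after Abx_14D, and in 3 and 1 in GF, and absorptive factors in 1 and 1 of 10, and in 1 and 2. Whether GF and Abx_14D differed by unlike amounts in colon and cecum was tested as an interaction: no member passed in crypt (0% of genes; 938 at an unadjusted p under 0.05, 24 called by DESeq2), goblet (0%; 463, and 5 by DESeq2) or absorptive cells (0.0513%).

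Finally, the share of crypt cells holding Atoh1, Dll1 or Dll4 was compared after thinning each cell to 5000 transcripts, which 7941 crypt cells reached. Of 15 comparisons, 1 had the smallest two-sided p that an exact permutation test of 4 against 4 samples can give, 0.0286: Dll1 in the colon, found in 2.98% ± 0.563 of GF and 4.46% ± 0.486 of Abx_14D crypt cells (SD, n = 4). GF samples lay between 2.57% and 3.81% and Abx_14D samples between 3.92% and 5.07%. Over the 15 comparisons its Benjamini-Hochberg adjusted value was 0.429, so it failed the correction, and without thinning the sign turned (a difference of 0.492 percentage points, exact permutation p = 0.629). Dll4-positive cells were 10.4% ± 3.06 of Abx_4D, 8.71% ± 1.93 of Ctrl, 6.75% ± 1.77 of GF and 6.42% ± 1.77 of Abx_14D cecal crypt cells, and these ranges overlapped.

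Across 41 means of class by group, the gene most like each member was sought among 10675 genes with the markers left out, by Pearson's r of log2(CPM + 1). These means share libraries and depth, and r is given as a description. Atoh1 was most like Gfi1 (r = 0.95), then Best2 and Tpsg1 (0.94 and 0.93), and Spdef most like Slc12a8 (0.96). Dll1 was most like Spdef (0.89), and Dll4 most like Dll1 (0.84). Notch1 was nearest to Zbtb38 (0.93) and Hes1 to Zfp36l2 (0.90). Neurog3 was nearest to the endocrine factors Insm1 (0.95) and Nkx2-2 (0.95), Klf4 to Clec2h (0.89), Foxa3 to Fam174b (0.92) and Gfi1 to Rasd2 (0.96).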

How the data were processed

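Single-cell RNA was sequenced from 8 sublibraries, and the authors deposited 1 table of raw transcript counts per gene and cell with a gene table and a cell table, per the file headers. The gene table names GRCm39, and the submitters' processing notes name mm39 and Seurat; for the aligner and counter, the tool was not given in the sources used here. Groups were read from the loaded sample names in the cell table, 32 in all, of which 24 were used. Of 24609 barcodes, 15916 had at least 500 transcripts and 14840 belonged to the groups compared.

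Classes were gates on marker transcripts per 10000 with at least 3 marker transcripts: goblet 20, enteroendocrine 5, tuft 10, absorptive 20, immune 2, stroma 2, and in the crypt class G2 and mitosis 15, S phase 8 and stem 30. The markers were listed by name and the thresholds set after seeing the data. The members and lists were chosen with earlier results of these data known. Counts were summed per loaded sample with at least 20 cells of a class (at least 10 on each side for Atoh1) and tested with edgeR 4.0.16 (quasi-likelihood, library-size scaling, filterByExpr) in R 4.3.3, with Benjamini-Hochberg adjustment over all genes and a threshold of 0.05. A member that failed the filter was not tested. Shares of cells were compared by an exact permutation test (scipy 1.17.1). The test was tried on simulated data with 200 changed genes. All 10 members are named; from each list at most the 4 genes with the smallest adjusted p per comparison are named, and the likeness search names at most 3 genes per member. Alternatives were TMM scaling, DESeq2 1.42.0, no low-count filter, other gates, depths and cell minimums, a replicate block, and leaving out each sample. Leaving out samples over 0.5% mitochondrial transcripts, and a minimum of 3 cells on each side, were chosen after seeing the data.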

Additional observations from a re-analysis of the deposited data

Results flagged for a closer look

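In groups of 4 loaded samples, the sample farthest from the others was compared with the group's range by Dixon's ratio at the 95% level, in 87 combinations of member, class and group with a mean of at least 10 CPM. The ratio passed in 7 of the 87, and chance alone passes about 1 in 20 groups.

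Dll4 in absorptive cells of cecal Abx_4D 1 was at 33.5 CPM while the other samples of the group were at 3.55 to 3.80 CPM. Dll4 in goblet cells of cecal GF 1 was at 30.0 CPM, below 59.3 to 63.8 CPM in the others. Hes1 in absorptive cells of cecal Ctrl 1 was at 163 CPM, against 52.9 to 71.0 CPM. Hes1 in goblet cells of colon GF 2 was at 97.4 CPM, against 25.5 to 34.8 CPM. Klf4 in crypt cells of colon GF 4 was at 54.5 CPM, just below 60.8 to 61.2 CPM. Notch1 in absorptive cells of cecal Abx_14D 1 was at 29.6 CPM, against 20.8 to 22.2 CPM. Notch1 in crypt cells of colon Abx_14D 1 was at 157 CPM, against 176 to 177 CPM.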

How the results depend on the processing

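For single members, 2978 values under an alternative kept direction and side of the threshold, 49 lost the call and 33 gained it. In cecal contrasts 0 members were called with every setting run, except 1 for crypt GF against Abx_14D without the low-count filter. For Atoh1-positive cells, the cecal count of 2 became 1 with at least 3 cells on each side or the goblet gate at 0.5 times, 0 when thinned with at least 3 cells, and 1 to 3 with a sample left out. Thinning with at least 10 cells could not be fitted in the cecum. The colon count of 5 became 3 with the goblet gate at 0.5 times, 2 when thinned to 5000 transcripts, 1 when thinned with at least 3 cells, and 4 to 5 with a sample left out. Part of these lower counts are members with no test: Spdef after thinning, and Dll1, Dll4 and Spdef after thinning with at least 3 cells, failed the filter. For colon GF against Abx_14D, the absorptive count of 1 became 0 with TMM scaling or the gate at 1.5 times, 2 without the filter, and 0 to 1 with a sample left out. The goblet count of 0 became 1 without the filter, and was 0 to 1 with a sample left out.

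Between regions, the absorptive count of 6 in Abx_14D became 3 without samples over 0.5% mitochondrial transcripts. The crypt count of 2 became 4 with DESeq2 in Abx_14D, and in GF 4 with the gate at 1.5 times and 1 without those samples, with 1 to 3 in both when a sample was left out. The goblet count of 1 became 3 without the filter in both conditions and 0 without those samples in Abx_14D, and with a sample left out it was 0 to 2 in Abx_14D and 1 to 2 in GF. The share of colon crypt cells with Dll1, GF minus Abx_14D, was -0.484 percentage points at 2500 transcripts, 0.492 unthinned, and -1.76 to -1.28 with a sample left out, where 3 against 4 samples cannot reach 0.05. Apart from fewer samples or cells, the cause was not tested.

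Samples with the same number did not all deviate together: 15 of 24 pairs of cecal crypt sums had a correlation over 0.1, and 0 of 4 in the colon. The numbers were not taken to pair the samples. Yet the median correlation of same-numbered pairs exceeded that of other pairs everywhere but in colon goblet sums (0.002 against 0.007). It was 0.127 against -0.045 in cecal crypt sums. Between regions it was 0.110 against -0.036 in crypt, 0.102 against -0.027 in goblet and 0.107 against -0.035 in absorptive sums. The main tests between regions make no allowance for this. A replicate block raised the crypt member count between regions in Abx_14D from 2 to 5. Over all genes, it moved crypt calls from 71 to 127 for Abx_4D against Ctrl and 39 to 66 for GF against Abx_14D, and goblet calls for Abx_4D, Abx_14D and GF against Ctrl from 0, 46 and 73 to 17, 112 and 233.

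Counts over all genes also moved with other settings. Without the low-count filter, crypt calls for Abx_4D, Abx_14D and GF against Ctrl went from 71, 389 and 642 to 338, 813 and 1048 (DESeq2 229, 615 and 914), goblet calls from 0, 46 and 73 to 88, 216 and 361 (DESeq2 16, 68 and 106), and absorptive calls from 155 and 353 to 463 and 713 for the antibiotic groups (DESeq2 329 and 560). For GF against Abx_14D they went from 39, 6 and 120 to 382, 231 and 348 in the cecum (DESeq2 107, 57 and 217) and from 115, 71 and 204 to 282, 284 and 560 in the colon (DESeq2 198, 113 and 376), in crypt, goblet and absorptive cells. Without samples over 0.5% mitochondrial transcripts, Abx_14D calls against Ctrl fell to 130, 16 and 71 in these classes, absorptive GF calls from 778 to 488, and calls between regions in Abx_14D from 4723 to 2854 in crypt and 1391 to 711 in goblet cells. Atoh1-positive cells had 534 calls in the colon, and 48 when thinned to 5000 transcripts. In the cecum they had 80 calls, 209 without the filter and 17 when thinned with at least 3 cells. Gfi1 and Neurog3 were too sparse to be tested in most classes.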

Other observations

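The colon Abx_4D samples entered no comparison, since 1 of them held most of the cells. In that sample (Abx_4D 1) 704 crypt cells had Hes1 at 345 CPM, Notch1 at 163, Klf4 at 85.7, Foxa3 at 38.9, Dll4 at 14.3, Dll1 at 12.3, Spdef at 7.22 and Atoh1 at 4.69 CPM. The 8 compared colon samples ranged from 165 to 315 CPM for Hes1 and from 2.22 to 5.57 CPM for Spdef in the same class. Its 47 goblet cells had Spdef at 130 CPM, Dll1 at 117, Atoh1 at 94.5 and Dll4 at 47.2 CPM, where the compared samples had 124 to 214 CPM of Atoh1. The other colon Abx_4D samples held 60, 6 and 22 crypt cells.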
